A study of Mus musculus with 12 samples.

Results

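Pitx1, Alx1, Alx4, Barx1, Foxc1, Foxc2, Lmx1b and Foxd1 are transcription factors of the neural crest mesenchyme that forms the tissue around the eye and the face. These 8 genes were taken by name from the 24060 genes listed, and all 8 were listed in every tumor. RNA was measured in 12 rhabdoid tumors (RTs) from FVB/N mice with the genotype P0-CreC;Smarcb1 flox/flox. The labels place 4 of them as retro-orbital, 3 in the cheek, 3 in the meninges, 1 in the vestibular nerve and 1 in the trigeminal nerve. All 12 tumors share the genotype: Cre under the P0 promoter acts in early neural crest cells and in the Schwann cell lineage and removes both floxed copies of Smarcb1, a core subunit of the SWI/SNF chromatin remodeling complex. The labels give neither the age of the animals nor a treatment. No normal tissue was analysed here, so levels are compared between tumors only. Tumors are numbered within a location in the order in which they were deposited.

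The cranial neural crest leaves the dorsal neural tube, moves into the head and gives rise to most of the mesenchyme of the face, to the mesenchyme around the eye and to the meninges of the forebrain. Its regional identity is recorded in combinations of transcription factors rather than in a single one. Homeodomain factors of the Alx and Pitx families and Barx1 mark parts of the frontonasal, periocular and jaw mesenchyme, Lmx1b is a LIM-homeodomain factor, and Foxc1, Foxc2 and Foxd1 are forkhead factors. Homeodomains and forkhead domains are protein modules that bind DNA.

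Levels are in RPKM, which counts the reads of a gene relative to the length of its transcript and to the depth of the library. The values rest on 13206168 to 57128422 fragments per tumor (median 27929720), recovered from the steps between low values. Smarcb1 itself was at 1.70 RPKM in the vestibular nerve tumor and between 2.90 and 6.31 RPKM in the other 11 tumors, measured over the whole gene and not over the deleted part. Of the tumor identifiers, 3 are carried by 2 tumors each: cheek 1 and meninges 1, cheek 2 and cheek 3, and retro-orbital 3 and the trigeminal nerve tumor. Whether tumors with 1 identifier came from 1 animal is not stated, so p-values measure the spread between these tumors. Each tumor is a bulk sample, in which fewer cells of a type and less RNA per cell cannot be told apart. Among the markers of other tissues, pituitary and retina genes stayed below 1 RPKM in every tumor, while the summed level of 4 epithelial genes ranged from 4.54 to 592 RPKM and that of 3 astrocyte genes from 1.38 to 421 RPKM. Every tumor also held RNA of endothelial markers (summed level of 5 genes up to 83.7 RPKM) and of leukocyte markers (3 genes, 78.7 to 423 RPKM).

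The coding sequences of 3 pairs of related members were aligned, since reads from similar stretches can match both genes, and Foxc1 and Foxc2 were the most alike of the 3 pairs. Their coding sequences hold 1659 and 1482 bases and are 74.9% identical over 1407 aligned bases. The longest stretch shared without a difference is 53 bases. In the most similar 120 bases, which lie in the forkhead domain region, 4 bases differ, shown in capitals below. The Foxc1 stretch is at chr13:31807619-31807738 and the Foxc2 stretch at chr8:121117005-121117124 (GENCODE M21 on GRCm38, both on the plus strand, in the coding part of the single exon of each gene).
Foxc1: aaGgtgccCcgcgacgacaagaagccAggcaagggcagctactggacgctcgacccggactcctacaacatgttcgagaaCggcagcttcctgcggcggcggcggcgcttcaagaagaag
Foxc2: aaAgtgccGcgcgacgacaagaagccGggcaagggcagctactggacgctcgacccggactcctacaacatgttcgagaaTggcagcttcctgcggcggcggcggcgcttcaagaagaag
Only uniquely mapped reads were counted by the authors, so reads that match both genes were left out of both. Foxc1 and Foxd1 are 70.4% identical over 1201 aligned coding bases, with a longest shared stretch of 21 bases. Alx1 and Alx4 are 65.2% identical over 947 aligned coding bases, with a longest shared stretch of 19 bases.

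**Figure D1:**
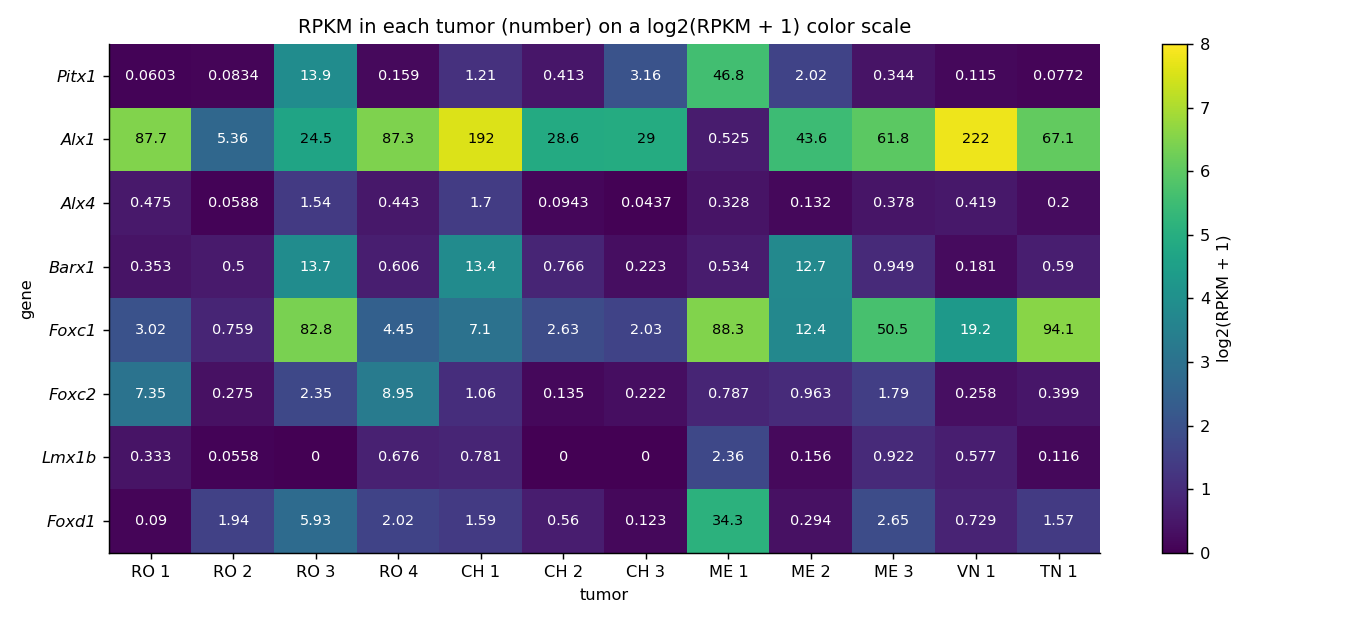
RPKM of the 8 genes (rows) in each of the 12 tumors (columns; RO retro-orbital, CH cheek, ME meninges, VN vestibular nerve, TN trigeminal nerve), printed in each cell over a color scale of log2(RPKM + 1). Alx1 is darkest in ME 1 (0.525 RPKM), where Pitx1 (46.8 RPKM) and Foxd1 (34.3 RPKM) are at their highest.

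Alx1 was the most abundant of the 8 genes in 9 of the 12 tumors, and in 11 tumors it was above 5 RPKM. Alx1 is a homeodomain factor of the frontonasal and periocular mesenchyme that is needed for the closure of the face. It was at 87.7, 5.36, 24.5 and 87.3 RPKM in retro-orbital tumors 1 to 4, at 192, 28.6 and 29.0 RPKM in cheek tumors 1 to 3, and at 0.525, 43.6 and 61.8 RPKM in meninges tumors 1 to 3. It reached 222 RPKM in the vestibular nerve tumor and 67.1 RPKM in the trigeminal nerve tumor. In the vestibular nerve tumor 99.1% of all genes listed had a lower RPKM, and in meninges 1 only 36.0% did. The step from meninges 1 to the next tumor, retro-orbital 2, was 10.2-fold, and the ranges of the 3 locations overlapped.

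Alx4, a related factor that acts together with Alx1 in the face, was low throughout. It was at 0.475, 0.0588, 1.54 and 0.443 RPKM in the retro-orbital tumors, at 1.70, 0.0943 and 0.0437 RPKM in the cheek tumors, and at 0.328, 0.132 and 0.378 RPKM in the meninges tumors. The vestibular nerve tumor had 0.419 RPKM and the trigeminal nerve tumor 0.200 RPKM. Only cheek 1 and retro-orbital 3 exceeded 1 RPKM, so Alx4 did not reach the minimum set for the test (1 RPKM in at least 3 tumors).

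Pitx1 marks the mesenchyme of the first pharyngeal arch, and it also acts in the hindlimb and in the pituitary. It was at 0.0603, 0.0834, 13.9 and 0.159 RPKM in the retro-orbital tumors, at 1.21, 0.413 and 3.16 RPKM in the cheek tumors and at 46.8, 2.02 and 0.344 RPKM in the meninges tumors. In the vestibular and trigeminal nerve tumors it was at 0.115 and 0.0772 RPKM. The highest level was 776-fold above the lowest, and 2 tumors from different locations, meninges 1 and retro-orbital 3, stood above the other 10. In those tumors the summed level of the epithelial markers was 429 and 403 RPKM, against 592 RPKM in the vestibular nerve tumor, where Pitx1 was at 0.115 RPKM. The epithelial genes peaked in different tumors. Epcam was highest in the vestibular nerve tumor (551 RPKM) and Krt14 in cheek 3 (270 RPKM). Krt5 was highest in meninges 1 (173 RPKM) and Cdh1 in retro-orbital 3 (84.9 RPKM). The part of epithelial RNA in the Pitx1 level was not tested. Pituitary genes were near 0 in all tumors (Pomc at most 0.533 RPKM, Tshb at most 0.841 RPKM).

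Barx1, a homeodomain factor of the jaw and tooth mesenchyme, showed 2 separate levels. It was at 0.353, 0.50, 13.7 and 0.606 RPKM in the retro-orbital tumors, at 13.4, 0.766 and 0.223 RPKM in the cheek tumors and at 0.534, 12.7 and 0.949 RPKM in the meninges tumors. The vestibular and trigeminal nerve tumors had 0.181 and 0.590 RPKM. Thus 1 tumor of each of the 3 replicated locations lay between 12.7 and 13.7 RPKM and the other 9 tumors lay below 1 RPKM, with a 13.4-fold step between them. The summed level of 4 bone genes was 206 RPKM in cheek 1, 81.0 RPKM in retro-orbital 3 and 3.90 RPKM in meninges 2. It was 121 RPKM in retro-orbital 1, where Barx1 was at 0.353 RPKM. The bone genes did not move together: Ibsp was highest in cheek 1 (189 RPKM) and Dmp1 in retro-orbital 1 (120 RPKM). Sp7 was highest in meninges 1 (26.0 RPKM), where Barx1 was at 0.534 RPKM. The part of bone tissue in the Barx1 level was not tested.

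Foxc1, a forkhead factor needed for the meninges and for the front of the eye, ran from 0.759 to 94.1 RPKM. It was at 3.02, 0.759, 82.8 and 4.45 RPKM in the retro-orbital tumors, at 7.10, 2.63 and 2.03 RPKM in the cheek tumors and at 88.3, 12.4 and 50.5 RPKM in the meninges tumors. The vestibular nerve tumor had 19.2 RPKM and the trigeminal nerve tumor 94.1 RPKM. All 3 meninges tumors were above all 3 cheek tumors, and the retro-orbital tumors spanned both. The 6 tumors with the highest Foxc1 were also the 6 with the highest summed level of the astrocyte markers Gfap, Aqp4 and Slc1a3, which was 74.0 to 421 RPKM there and 1.38 to 20.5 RPKM in the other 6. The summed Schwann cell markers were also highest in the same 6 tumors (20.7 to 60.5 RPKM, at most 6.81 RPKM in the others). Fabp7, an early marker of Schwann cell precursors, was highest in them as well (2.59 to 44.8 RPKM, at most 1.70 RPKM in the others). The summed neuron markers were not, with 38.0 RPKM in retro-orbital 4 and 15.3 RPKM in retro-orbital 3. Most of the retro-orbital 4 sum was Syt1, which was highest there (31.95 RPKM). The other neuron markers were highest within the same 6 tumors, Rbfox3 in the vestibular nerve tumor (2.04 RPKM) and Snap25 in the trigeminal nerve tumor (30.9 RPKM). Whether admixed brain or nerve tissue had a part in the Foxc1 level was not tested.

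Foxc2, its closest relative and a factor of vessels and lymphatics as well as of head mesenchyme, was high in different tumors. It was at 7.35, 0.275, 2.35 and 8.95 RPKM in the retro-orbital tumors, at 1.06, 0.135 and 0.222 RPKM in the cheek tumors and at 0.787, 0.963 and 1.79 RPKM in the meninges tumors. The vestibular and trigeminal nerve tumors had 0.258 and 0.399 RPKM. Retro-orbital 1 and 4 led for Foxc2 while their Foxc1 stood at 3.02 and 4.45 RPKM, and the trigeminal nerve tumor led for Foxc1 with 0.399 RPKM of Foxc2. Over the 12 tumors Pearson's r between both genes was -0.04 (permutation p = 0.89) and Spearman's rho was 0.25 (permutation p = 0.43).

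Foxd1, a forkhead factor known from the stroma of the kidney and from the developing optic system, was at 0.0900, 1.94, 5.93 and 2.02 RPKM in the retro-orbital tumors, at 1.59, 0.560 and 0.123 RPKM in the cheek tumors and at 34.3, 0.294 and 2.65 RPKM in the meninges tumors. It was at 0.729 RPKM in the vestibular nerve tumor and 1.57 RPKM in the trigeminal nerve tumor. Meninges 1 stood 5.78-fold above the next tumor, retro-orbital 3. Lmx1b, which acts in the front of the eye, the limb and certain neurons, had the lowest median over the 12 tumors (0.245 RPKM, next Alx4 with 0.353 RPKM). It was at 0.333, 0.0558, 0 and 0.676 RPKM in the retro-orbital tumors, 0.781, 0 and 0 RPKM in the cheek tumors, 2.36, 0.156 and 0.922 RPKM in the meninges tumors, 0.577 RPKM in the vestibular nerve tumor and 0.116 RPKM in the trigeminal nerve tumor. Only meninges 1 exceeded 1 RPKM. At the 0 values, counting error alone allows a level of up to 0.0431 RPKM in retro-orbital 3, 0.0754 RPKM in cheek 2 and 0.186 RPKM in cheek 3, the RPKM worth 3 fragments. The related gene Lmx1a reached 27.1 RPKM in meninges 2, where Lmx1b was at 0.156 RPKM, and was below 1 RPKM in the other 11 tumors.

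**Figure D2:**
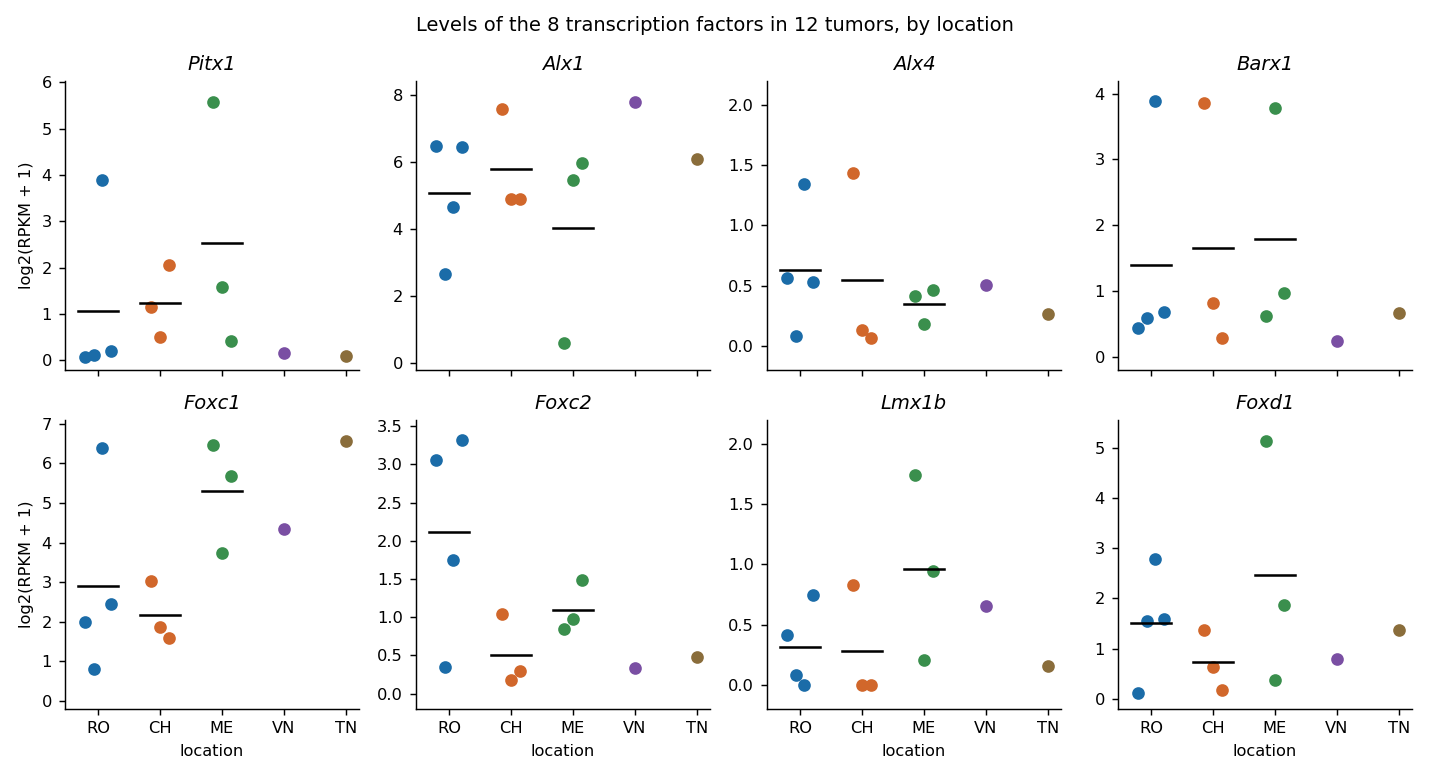
log2(RPKM + 1) of each gene (one panel per gene, each with its own axis) by location (RO retro-orbital, n = 4; CH cheek, n = 3; ME meninges, n = 3; VN vestibular nerve and TN trigeminal nerve, n = 1 each); points are tumors and bars are location means. Foxc1 is the one gene whose cheek points (up to 7.10 RPKM) all lie below its meninges points (from 12.4 RPKM).

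Location of the tumor was then set against the levels of the 8 genes, the comparison the sample labels provide. None of the members was called different between locations. In limma's moderated F test over the retro-orbital, cheek and meninges tumors, 0 of the 6 members that passed the minimum were called at a Benjamini-Hochberg adjusted p under 0.05, beside 6 of all 14745 genes tested (0.0407%). At an unadjusted p under 0.05 the F test held 2110 of the 14745 genes and no member. In the pairwise contrasts 0 members were called as well, beside 0.0271% of genes for cheek against retro-orbital, 0.0203% for meninges against retro-orbital and 0.0475% for cheek against meninges. With so few genes called in all, the absence of members among them is no sign that they behave differently from other genes. Alx4 and Lmx1b entered the fit only when the minimum was dropped, with adjusted F test p-values of 0.862 and 0.562.

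The largest difference was that of Foxc1. The retro-orbital tumors averaged 22.8 ± 40.1 RPKM of Foxc1 (SD, n = 4), those of the cheek 3.92 ± 2.77 RPKM and those of the meninges 50.4 ± 37.9 RPKM (n = 3 each). Its mean log2(RPKM + 1) was 2.16 in the cheek and 5.30 in the meninges tumors, a difference of -3.14 ± 1.27 (SE; adjusted p = 0.262 by limma). Foxc2 was at 4.73 ± 4.09, 0.473 ± 0.512 and 1.18 ± 0.538 RPKM in the same order. Its mean log2(RPKM + 1) was 0.51 in the cheek and 2.12 in the retro-orbital tumors, a difference of -1.61 ± 0.65 (adjusted p = 0.376 by limma). These 2 contrasts were the member contrasts with an unadjusted p under 0.05 by limma. Of all 14745 genes tested, 2501 passed that mark in cheek minus meninges, 1765 in cheek minus retro-orbital and 1348 in meninges minus retro-orbital. Such p-values were thus common among genes in general. For Foxd1 the widest difference was cheek minus meninges, -1.73 ± 1.09 (adjusted p = 0.432 by limma), and -0.39 without meninges 1. For Alx1 it was cheek minus meninges, 1.78 ± 1.51 (adjusted p = 0.561 by limma), and 0.07 without meninges 1. For Pitx1 it was meninges minus retro-orbital, 1.46 ± 1.29 (adjusted p = 0.713 by limma), and -0.07 without meninges 1. Barx1 differed least, with 0.39 ± 1.17 for meninges minus retro-orbital (adjusted p = 0.93 by limma). The order of the mean log2 levels was meninges, retro-orbital and cheek for Foxc1 and Foxd1, meninges, cheek and retro-orbital for Pitx1 and Barx1, cheek, retro-orbital and meninges for Alx1, and retro-orbital, meninges and cheek for Foxc2, and no step in any of these orders was past the adjusted threshold. Treating tumors with a shared identifier as a block called 5 members (all but Foxc2), each of them also in cheek minus meninges, and 2802 genes in all by the F test, whereas with 1 tumor per identifier 0 members and 0 genes were called.

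**Figure D3:**
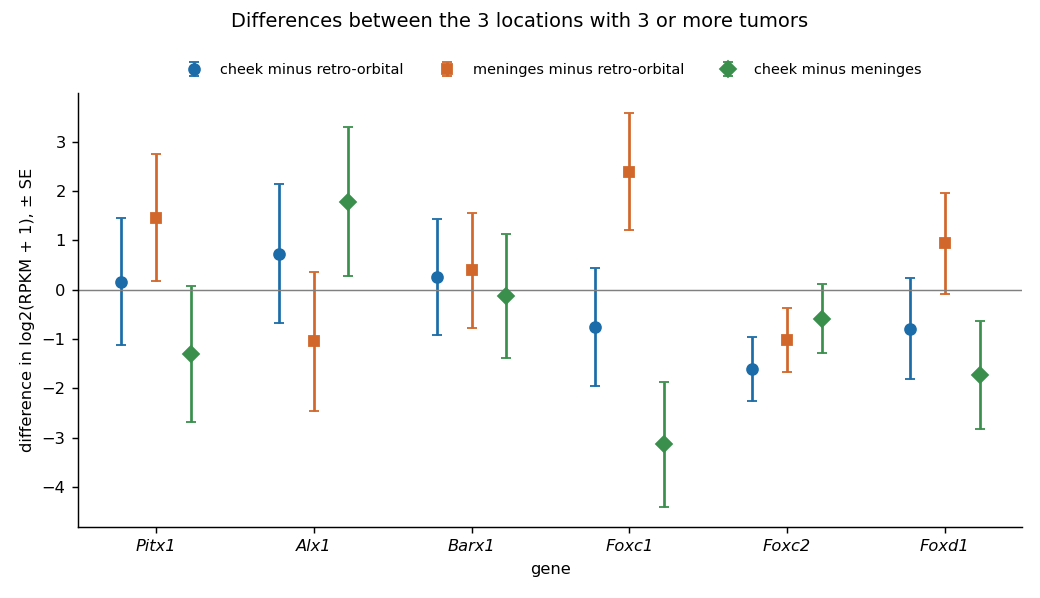
Differences in mean log2(RPKM + 1) between locations with their standard errors from limma (retro-orbital n = 4, cheek n = 3, meninges n = 3) for the 6 genes tested. The widest is Foxc1 in cheek minus meninges (-3.14 ± 1.27), and no difference passed the adjusted threshold.

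Most of the variation lay between tumors of 1 location. The share of the variance of log2(RPKM + 1) that lay between the 3 locations was 42.8% for Foxc2, 42.1% for Foxc1, 32.1% for Lmx1b, 21.8% for Foxd1, 13.4% for Pitx1, 12.9% for Alx1, 6.17% for Alx4 and 1.27% for Barx1, beside a median of 30.1% over the genes tested. Of the 24 comparisons of a member between 2 of these locations, 1 had ranges that did not overlap, Foxc1 between cheek and meninges. Among all genes tested, 28.7% had ranges apart between cheek and meninges, 11.1% between retro-orbital and cheek and 9.23% between retro-orbital and meninges. Over the 12 tumors the spread of the members was wide: among genes with at least 1 RPKM in 3 tumors, 99.0% had a smaller SD of log2(RPKM + 1) than Foxc1, 98.7% than Alx1, 97.7% than Pitx1, 95.8% than Barx1 and 94.8% than Foxd1. The share was 88.1% for Foxc2, 55.9% for Lmx1b and 46.7% for Alx4.

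Of the 3 pairs of tumors with a shared identifier, 2 join different locations and 1 lies within the cheek. Of cheek 1 and meninges 1, cheek 1 was higher in Alx1 (192 against 0.525 RPKM), Barx1 (13.4 against 0.534 RPKM) and Alx4 (1.70 against 0.328 RPKM). Meninges 1 was higher in Pitx1 (46.8 against 1.21 RPKM), Foxd1 (34.3 against 1.59 RPKM), Foxc1 (88.3 against 7.10 RPKM) and Lmx1b (2.36 against 0.781 RPKM). Foxc2 was at 1.06 RPKM in cheek 1 and 0.787 RPKM in meninges 1. How many of all genes differ as much between these 2 tumors was not counted. Retro-orbital 3 and the trigeminal nerve tumor had Foxc1 at 82.8 and 94.1 RPKM, while Pitx1 stood at 13.9 and 0.0772 RPKM and Barx1 at 13.7 and 0.590 RPKM. Cheek 2 and cheek 3 were close in Alx1 (28.6 and 29.0 RPKM) and Foxc1 (2.63 and 2.03 RPKM), and Pitx1 was at 0.413 and 3.16 RPKM. These pairs were chosen by label and each is a single difference without a replicate check.

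Whether members moved together from tumor to tumor was asked over the 28 pairs. Pearson's r ran from -0.67 to 0.76 with a median of 0.24, and 21 pairs were above 0. No pair passed an adjusted p of 0.05 over the 28 pairs (permutation tests with 100000 resamples, two-sided), and 6 passed at an unadjusted p under 0.05. The highest was Pitx1 with Foxd1 (r = 0.76, permutation p = 0.013, adjusted p = 0.14; rho = 0.36, permutation p = 0.26, adjusted p = 0.48), and without the 2 tumors farthest from the median of Pitx1 it was -0.46. Pitx1 and Foxd1 were both highest in meninges 1 and next highest in retro-orbital 3, and the relation rested on those tumors. Foxc1 with Foxd1 (r = 0.62, permutation p = 0.018, adjusted p = 0.14; rho = 0.51, permutation p = 0.093, adjusted p = 0.45) was 0.59 without the 2 tumors farthest from the median of Foxc1. Alx1 with Foxd1 (r = -0.67, permutation p = 0.028, adjusted p = 0.14; rho = -0.39, permutation p = 0.21, adjusted p = 0.45) was -0.08 when the 2 tumors farthest from the median of Alx1, meninges 1 and retro-orbital 2, were left out. Since Barx1 had 2 separate levels, its pooled correlations with the other members are not described one by one here.

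**Figure D4:**
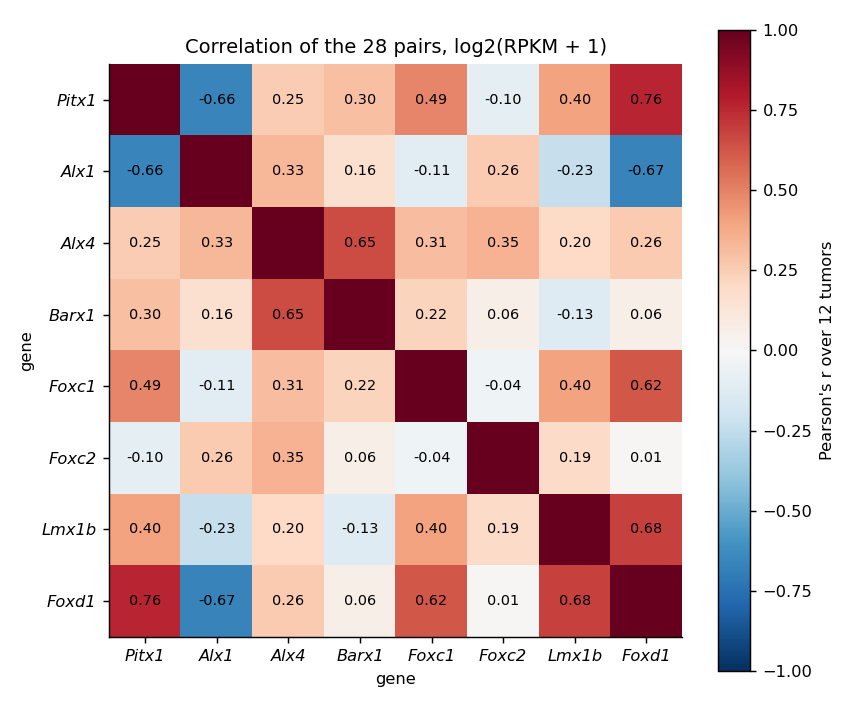
Pearson's r of log2(RPKM + 1) over the 12 tumors for each of the 28 pairs of genes (rows and columns; red above 0, blue below 0, the diagonal is 1 by definition). The strongest cells are Pitx1 with Foxd1 (0.76), Lmx1b with Foxd1 (0.68) and Alx1 with Foxd1 (-0.67).

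The genes next to each member on the chromosome were also followed, all those within 250 kb that the RefSeq annotation (GRCm38.p6) and the files both hold. The question and the window were set after values of the forkhead genes near Foxc1 and Foxc2 had been seen. At the minimum of 1 RPKM in 3 tumors, 26 pairs of a member and a nearby gene could be compared. Of these, 6 passed an adjusted p of 0.05 over the 26 pairs, and 4 of the 6 were the 4 genes compared near Foxc1, all in the positive direction. Foxc1 lies at chr13:31806646-31810635. Gmds, which encodes an enzyme of GDP-fucose synthesis, lies at chr13:31819583-32338762, with 8947 bases between its nearer edge and Foxc1. It gave r = 0.92 (permutation p = 1e-05, the smallest that 100000 resamples can give, adjusted p = 0.00026) and rho = 0.90 (permutation p = 0.0002, adjusted p = 0.0052). Gmds was at 118 RPKM in meninges 1, 65.2 RPKM in the trigeminal nerve tumor and 6.67 RPKM in retro-orbital 2, the tumor with the lowest Foxc1.

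The forkhead gene Foxf2, at chr13:31625816-31631406 and 175239 bases from Foxc1, gave r = 0.87 (permutation p = 0.00047, adjusted p = 0.0061; rho = 0.71, permutation p = 0.012, adjusted p = 0.061). It was at 22.7, 11.1, 7.12, 6.47 and 4.21 RPKM in meninges 1, meninges 3, retro-orbital 3, the trigeminal nerve tumor and meninges 2, and at most 1.11 RPKM in the other 7. The forkhead gene Foxq1, at chr13:31558170-31560976, gave r = 0.74 (permutation p = 0.0038, adjusted p = 0.023; rho = 0.79, permutation p = 0.0034, adjusted p = 0.03), with 5.49 RPKM in retro-orbital 3, 3.52 RPKM in meninges 1 and 1.48 RPKM in meninges 3. The trigeminal nerve tumor had the highest Foxc1 but only 0.269 RPKM of Foxq1. The non-coding gene 1700018A04Rik, at chr13:31565492-31582513 between Foxq1 and Foxf2, gave r = 0.80 (permutation p = 0.0015, adjusted p = 0.013; rho = 0.75, permutation p = 0.0065, adjusted p = 0.043). Without the 2 tumors farthest from the median of Foxc1, r was 0.90 for Gmds, 0.83 for Foxf2, 0.85 for Foxq1 and 0.86 for 1700018A04Rik. Genes elsewhere in the genome reached similar values: among all genes at the same minimum, 0.18% correlated with Foxc1 at least as strongly as Gmds, 1.02% as strongly as Foxf2, 3.19% as strongly as 1700018A04Rik and 6.30% as strongly as Foxq1. The 6 tumors with the highest Gmds were the 6 with the highest Foxc1 and thus also those with the highest astrocyte and Schwann cell marker sums. The part of brain or nerve tissue in these relations was not tested.

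**Figure D5:**
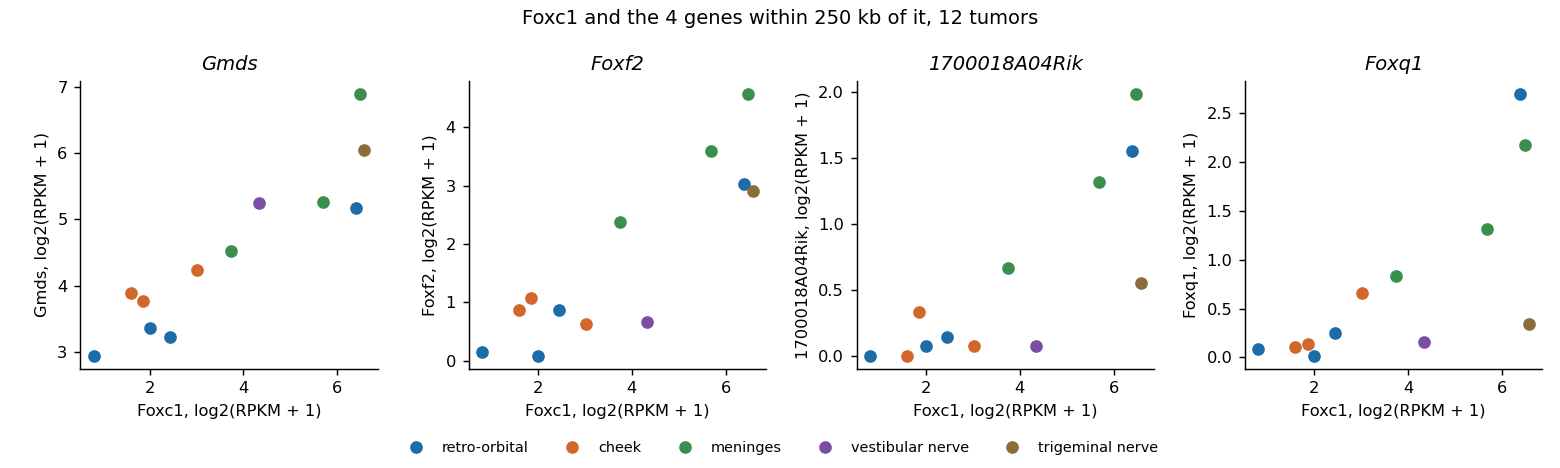
log2(RPKM + 1) of the 4 genes compared within 250 kb of Foxc1 (vertical axes) against that of Foxc1 (horizontal axes) in the 12 tumors, colored by location. Gmds follows Foxc1 most closely (r = 0.92), and the trigeminal nerve tumor lies low in the panels of 1700018A04Rik and Foxq1.

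The stretches before the start sites of Foxc1 and Foxf2 are shown since both genes moved together. Each is the 250 bases upstream of the RefSeq start (GRCm38.p6, plus strand), with every CG dinucleotide in capitals. The Foxc1 stretch is at chr13:31806396-31806645 and the Foxf2 stretch at chr13:31625566-31625815. The upstream stretch of Barx1, at chr13:48662786-48663035, is shown beside them for the gene with 2 separate levels.
Foxc1: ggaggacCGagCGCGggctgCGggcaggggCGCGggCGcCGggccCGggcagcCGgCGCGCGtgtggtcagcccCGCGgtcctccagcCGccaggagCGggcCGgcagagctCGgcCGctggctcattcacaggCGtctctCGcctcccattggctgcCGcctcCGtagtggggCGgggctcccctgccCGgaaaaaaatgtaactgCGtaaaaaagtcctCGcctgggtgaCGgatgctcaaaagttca
Foxf2: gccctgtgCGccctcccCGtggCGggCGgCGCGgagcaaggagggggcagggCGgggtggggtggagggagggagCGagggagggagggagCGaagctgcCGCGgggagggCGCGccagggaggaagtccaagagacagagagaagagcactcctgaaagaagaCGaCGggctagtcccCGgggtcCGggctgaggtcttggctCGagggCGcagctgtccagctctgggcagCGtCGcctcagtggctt
Barx1: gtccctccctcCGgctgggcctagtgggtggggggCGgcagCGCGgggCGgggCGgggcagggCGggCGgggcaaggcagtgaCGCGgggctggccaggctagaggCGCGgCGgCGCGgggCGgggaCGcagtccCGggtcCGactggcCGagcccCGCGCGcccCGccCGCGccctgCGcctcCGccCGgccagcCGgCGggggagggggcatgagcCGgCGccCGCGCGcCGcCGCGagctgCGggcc
They hold 29, 21 and 40 CG dinucleotides, beside a median of 6 over 32851 upstream stretches of the same length. At least as many were found in 6.78% of these stretches for Foxc1, 16.3% for Foxf2 and 1.31% for Barx1. Upstream stretches of Lmx1b (19 CG) and Foxd1 (12 CG) were also matched, so that 4 of the 8 members had one. Neither the homeodomain core motif TAATTA nor the forkhead motif GTAAACA, searched on both strands, was found in the 3 stretches shown, while 4.84% and 3.17% of all stretches held them. This says only that these letters are not in these windows.

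Foxc2 did not show the pattern of Foxc1. It lies at chr8:121116171-121118895 with Foxf1 28016 bases and Foxl1 8789 bases away. Foxf1, a forkhead factor of mesenchyme, gave r = 0.18 (permutation p = 0.59, adjusted p = 0.93; rho = -0.15, permutation p = 0.65, adjusted p = 0.87). It was highest in retro-orbital 4 (38.9 RPKM), as was Foxc2, but stood at 27.1 and 22.8 RPKM in cheek 2 and cheek 3, where Foxc2 was at 0.135 and 0.222 RPKM. Foxl1 exceeded 1 RPKM in 1 tumor, retro-orbital 4 (4.30 RPKM), followed by retro-orbital 1 (0.761 RPKM), the same pair that led for Foxc2. Whether Foxc1 and Foxc2 differ in their relation to nearby genes was not tested. Of the other members, Alx1 with its nearest neighbor Lrriq1, at chr10:103044377-103236375, gave r = 0.76 (permutation p = 0.0044, adjusted p = 0.023; rho = 0.79, permutation p = 0.0031, adjusted p = 0.03), and 0.0599% of all genes correlated with Alx1 at least as strongly. Lrriq1 was at 23.2 RPKM in cheek 1 and 7.48 RPKM in the vestibular nerve tumor, the tumors with the most Alx1, and at 0.233 RPKM in meninges 1. Foxd1 with Arhgef28 (r = 0.77, permutation p = 0.008, adjusted p = 0.035; rho = 0.69, permutation p = 0.016, adjusted p = 0.068) went to 0.39 without the 2 tumors farthest from the median of Foxd1. None of the 7 genes compared near Pitx1 or the 7 near Barx1 passed.

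Across all 15020 other genes at the same minimum, those whose pattern over the 12 tumors was most like a member's are given as a description. For Foxc1 they were Fam107a (r = 0.976), Sema4g (r = 0.962) and Mfsd2a (r = 0.955), the last a lipid transporter of the blood-brain barrier, which reached 7.95 RPKM in the trigeminal nerve tumor. For Foxd1 they were Eva1c (r = 0.947), Hoxb6 (r = 0.94) and Hoxb7 (r = 0.932), with both Hox genes highest in meninges 1 (22.3 and 22.8 RPKM). For Pitx1 they were Dapl1 (r = 0.957, rho = 0.83), Duoxa1 (r = 0.947, rho = 0.92) and Grasp (r = 0.909, rho = 0.59), all highest in meninges 1. Alx1 was closest to Slc50a1 (r = 0.823), Tm9sf2 (r = 0.807) and Slc6a15 (r = 0.798). Barx1 was closest by r to Sfrp1 (r = 0.912, rho = 0.51), an inhibitor of Wnt signaling, to Nmb (r = 0.896, rho = 0.58) and to Tmem115 (r = 0.889, rho = 0.68). Since Barx1 had 2 separate levels and the rank correlations were lower, these r values do not show a graded relation. Foxc2 was closest to Rapgef2 (r = 0.939), AI115009 (r = 0.937) and Kcnj8 (r = 0.933), a potassium channel gene that is among the mural cell markers and peaked at 5.96 RPKM in retro-orbital 4.

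Other genes of these mesenchymes gave no call by location either. Of 7 periocular genes all 7 were tested, of 16 jaw genes 11, of 12 general head mesenchyme genes 12 of 8 signals that act on facial mesenchyme 6, of 8 meningeal genes 6 and of 12 paralogs and chromosomal neighbors of the members 5, and 0 were called in any test. The median difference for cheek minus meninges was -0.04 in the periocular, -0.45 in the jaw and 0.82 in the general head mesenchyme genes, beside -0.95 in the 6 members tested and -0.16 in all genes tested. The signals, the meningeal genes and the paralogs and neighbors had medians of -0.47, -1.16 and -1.14 for cheek minus meninges. For cheek minus retro-orbital the first 5 of these medians were 0.55, 0.08, 0.80, -0.30 and -0.02, and for meninges minus retro-orbital 0.14, 0.14, -0.25, 0.67 and 0.13, in the same order. Single genes of these lists varied widely from tumor to tumor: Pax9 reached 85.7 RPKM in the vestibular nerve tumor, Lhx8 91.8 RPKM in cheek 2, Hand2 85.1 RPKM in meninges 2 and Msx1 25.7 RPKM in cheek 3. The medians of Pax9, Lhx8 and Hand2 over the 12 tumors were 2.57, 1.66 and 3.68 RPKM. Dkk2, a Wnt modulator of the periocular mesenchyme, ranged from 5.19 to 345 RPKM with its highest level in cheek 2, and Shox2 from 0.324 to 97.2 RPKM with its highest in retro-orbital 2. Prrx1 and Twist1, general markers of head mesenchyme, were above 4 RPKM in all 12 tumors (4.36 to 225 and 10.9 to 192 RPKM). Among the signals, Bmp4 ran from 1.83 to 303 RPKM with its highest level in cheek 1. The meningeal marker Ptgds was at 0.0876 to 51.5 RPKM and highest in retro-orbital 4, and Slc22a6 and Slc6a13 stayed below 1 RPKM in every tumor, the meninges tumors included. The other meningeal genes were above 1 RPKM in all 12 tumors. Ogn was at 185 to 1334 RPKM, Dcn at 33.6 to 242 RPKM and Lum at 7.41 to 207 RPKM. Crabp2 was at 2.34 to 676 RPKM and Aldh1a2 at 1.48 to 72.2 RPKM.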

How the data were processed

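RNA was extracted from 12 frozen tumors, and libraries were made with the TruSeq Stranded kit after RiboZero Gold depletion and sequenced in a single pool on a HiSeq instrument. The authors made FASTQ files with bcl2fastq (2.17), mapped reads to mm10 with STAR, counted uniquely mapped reads on RefSeq genes with HTSeq and deposited 1 file of RPKM values per tumor. The submitters' notes also name edgeR and limma. The version of STAR, the transcript lengths and the strand setting of the counting are not given in the sources used here, so reads from overlapping genes on opposite strands may not be separated.

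Each file lists 24060 genes, 1447 of them at 0 in every tumor and 27 with a date in place of a symbol. Fragment totals were worked out from 1715 genes of 1 annotated length whose low RPKM values gave nearly whole numbers in every tumor. For each member, the smallest length that gave whole fragments (within 0.02) was taken, and its fragment numbers rest on that assumption. A floor is the RPKM worth 3 fragments. Floors cover counting error only.

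The main test was limma (3.58.1, R 4.3.3) on log2(RPKM + 1) with a trended, robust prior over the 10 tumors of the 3 locations with at least 3 tumors, for genes that reached 1 RPKM in 3 or more of them, with Benjamini-Hochberg adjustment over all genes tested and a threshold of 0.05. A fold change on this scale understates that of low genes. The vestibular and trigeminal nerve tumors, 1 each, are given as values only. Correlations are on the same scale over the 12 tumors, with two-sided permutation tests (100000 resamples, or exact enumeration for n = 9; scipy 1.17.1). They pool locations, since no location holds 6 tumors. No sequencing batch is given beyond the single pool. The calculations for fragments, limma and correlations were tested on simulated data. Alternatives were a pseudocount of 0.1, no minimum, quantile normalization, tumors with a shared identifier as a block, 1 tumor per identifier, all 12 tumors in the fit and each tumor left out in turn. Rescaling of RPKM to 1 sum per tumor, and the alternatives for the pairs of members and nearby genes, were added after seeing the data.

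Sequences are from RefSeq (GRCm38.p6), and coding sequences from GENCODE M21 on GRCm38, aligned with Biopython (1.88). The members and lists were chosen with earlier results of these data known. The text names the 8 members, from each list up to 4 genes with the largest range, and for each member above the minimum the 3 genes with the highest r. Twist1, Slc22a6, Slc6a13, Ogn and Dcn were named after their values were seen. Some genes that this rule would name are not reported here.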

Additional observations from a re-analysis of the deposited data

Results flagged for a closer look

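In the group of 4 retro-orbital tumors, retro-orbital 3 stood far from the others in 2 of the 8 genes on the scale of log2(RPKM + 1). For Pitx1 (13.9 RPKM, the other 3 at most 0.159 RPKM) the gap to the next tumor on that scale was 0.966 of the whole range, and for Barx1 (13.7 RPKM, the other 3 at most 0.606 RPKM) it was 0.928, both above Dixon's 95% critical value for 4 samples. Chance flags about 1 in 20 such groups. Retro-orbital 3 also had the highest recovered fragment total (57128422). Its summed level of mural cell markers was the highest as well (289 RPKM), of which Rgs5 alone made up 256 RPKM. The other mural cell markers were highest in other tumors: Pdgfrb and Notch3 in retro-orbital 2, Abcc9 in retro-orbital 1 and Kcnj8 in retro-orbital 4. Whether the fragment total or mural cells had a part in the Pitx1 and Barx1 levels was not tested.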

How the results depend on the processing

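No member was called by location in any alternative except the fit that treated tumors with a shared identifier as a block. That fit called 5 members by the F test and 5 in a contrast, and 2802 genes by the F test, 2 for cheek minus retro-orbital and 4243 for cheek minus meninges. The block has an estimated correlation of 0.93 between tumors of 1 identifier, and cheek 1 and meninges 1 are the only such pair from different locations in the fit. By another measure, deviations from the location means were correlated over genes. This gave r = 0.225 for cheek 1 with meninges 1 and 0.579 for cheek 2 with cheek 3. For cheek minus meninges the block fit gave Alx1 6.26 (adjusted p = 0.000879 by limma), Foxc1 -3.40 (adjusted p = 0.00204), Foxd1 -3.45 (adjusted p = 0.00137), Pitx1 -3.98 (adjusted p = 0.00627) and Barx1 2.79 (adjusted p = 0.0109). With 1 tumor per identifier, each of the 4 counts of genes called was 0, from 6, 4, 3 and 7 (F test, cheek minus retro-orbital, meninges minus retro-orbital, cheek minus meninges), and 785 genes passed the F test at an unadjusted p under 0.05. Without the minimum these counts were 10, 2, 7 and 18. With rescaled RPKM, an alternative chosen after seeing the data, the F test called 12, meninges minus retro-orbital 9 and cheek minus meninges 16. For cheek minus meninges the count was 2 with a pseudocount of 0.1 and 13 after quantile normalization.

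Leaving out 1 tumor moved the counts from 0 to 198 (F test), 0 to 147 (cheek minus retro-orbital), 0 to 41 (meninges minus retro-orbital) and 0 to 527 (cheek minus meninges), and 0 members were called each time. Without cheek 1 they were 198, 147, 7 and 527, without retro-orbital 3 they were 56, 2, 41 and 65, and without cheek 2 or without cheek 3 all were 0. Barx1 fell below the minimum without cheek 1, without retro-orbital 3 or without meninges 2, so only 5 members were tested in those fits. Of 99 values for 6 contrasts of single members, 93 kept their direction and their side of the threshold, 3 passed it under the block, and 3 changed sign: Pitx1 in meninges minus retro-orbital was -0.07 with 1 tumor per identifier and ran from -0.07 (without meninges 1) to 2.51 (without meninges 3) when 1 tumor was left out, and Barx1 was -0.59 under the block. The Foxc1 difference between cheek and meninges ranged from -3.92 to -2.28 the Foxd1 difference from -3.45 to -0.11 and the Alx1 difference from 0.07 (without meninges 1; 0.51 with 1 tumor per identifier, 0.88 without cheek 1) to 6.26 (block). Among the members, 1 pair passed with 1 tumor per identifier (n = 9): Pitx1 with Barx1 (r = 0.80, exact permutation, adjusted p = 0.0064), against r = 0.30 (adjusted p = 0.75, permutation) over all 12 tumors, and 0 passed with a pseudocount of 0.1 or after quantile normalization. All 4 genes near Foxc1 passed in each of the 4 alternatives run, with r of at least 0.68, as did Alx1 with Lrriq1. Foxd1 with Arhgef28 did not pass after quantile normalization or with 1 tumor per identifier, which left 5 of the 26 pairs. Depth limits Lmx1b most, which rested on 0 to 79 fragments per tumor, with 3 or fewer in 5 tumors.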

Other observations

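RNA of markers of other tissues was found at different levels. Whether it came from admixed tissue was not tested. Of the skeletal muscle genes all 5 reached 1 RPKM in 3 or more tumors, and their summed level ran from 4.67 RPKM in meninges 2 to 530 RPKM in cheek 2. Lens and cornea genes reached 134 RPKM in the trigeminal nerve tumor, nearly all of it Kera (132 RPKM), a keratocan gene of the corneal stroma. Schwann cell markers ran from 1.65 RPKM in cheek 3 to 60.5 RPKM in meninges 3. Cartilage genes summed to 1.42 to 15.9 RPKM, lymphatic endothelial genes to 8.83 to 215 RPKM and neuronal genes to 10.6 to 39.9 RPKM. Among the dopaminergic and serotonergic genes (0.0743 to 35.0 RPKM), which bear on Lmx1b since it acts in such neurons, Slc6a4 alone passed the minimum (34.4 RPKM in meninges 3, where Lmx1b was at 0.922 RPKM). Prox1, a defining lymphatic gene, stayed at or below 0.387 RPKM.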
